A study of Mus musculus with 4 samples.

Results

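Metallothioneins are small cysteine-rich proteins that bind zinc and copper, and together with the transporters of zinc and iron they set how much free metal a cell holds. The genes described here are 10 mouse genes of this kind, of 20660 genes named on the array: the metallothioneins Mt1, Mt2 and Mt3, the zinc sensor Mtf1, the zinc transporters Slc30a1, Slc30a3 and Slc39a14, and the iron genes Tfrc, Trf and Slc40a1. They were chosen by name, and every non-control probe whose RefSeq accession belongs to one of them was read, which gave 15 of the 55681 probes on the array. Of these, 14 probes were well above background on all 4 arrays, and 1 probe of Mtf1 was so on none.

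Metal-responsive transcription factor 1, the product of Mtf1, binds zinc and then DNA, and it switches on the genes of metallothioneins and of the zinc exporter Slc30a1, so that their mRNAs commonly follow the zinc available to a cell. Mt1 and Mt2 are also induced by glucocorticoids, and in brain they are known mainly from astrocytes, whereas Mt3 is the metallothionein of the nervous system. Iron enters brain cells bound to transferrin through the transferrin receptor and leaves them through ferroportin, the product of Slc40a1.

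Pregnant C57BL/6J mice received vehicle (Sham) or titanium dioxide nanoparticles (TiO2-H) in 25 μL by a single intratracheal spray, and the whole brains of their offspring were taken at postnatal day 1. The nanoparticle dose was 100 μg per mouse, given on gestational day 10.5 by the protocol, while other labels of the samples give day 14. RNA of 2 offspring from each of 5 Sham dams or 6 TiO2-H dams was pooled by labelled sex, and each of the 4 pools was hybridized to 1 one-color array, whose spots glow in proportion to the labeled RNA they bind. Values are given for Sham first and TiO2-H after it, and within each for the array labelled male and then the array labelled female. One slide carried the 4 arrays, the Sham pools in one row and the TiO2-H pools in the other, so that exposure, litters and slide row cannot be told apart. Each array is 1 pool, and the spread between the 2 arrays of a group therefore includes any difference between the sexes but not the spread between dams.

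The sex labels of the TiO2-H arrays went against their sex-linked RNAs. Xist, the RNA of the inactive X chromosome, read 276 units of processed signal in the female Sham pool and 347 in the TiO2-H pool labelled male, and was not rated well above background in the other pools. The Y-linked Eif2s3y read 3519 and 419 units in Sham, was dim, not well above background, in the TiO2-H pool labelled male, and read 4345 units in the TiO2-H pool labelled female. Values within a sex are therefore given by label and, where a result uses them, also with the TiO2-H arrays exchanged. For the tissue label, all 6 neuronal markers were well above background on every array. Of 4 liver markers, Alb and Apoa1 were well above background on no array, Fga on 2, and Ttr, which the choroid plexus also makes, on every array. The 75th percentile of signal, the value each array was scaled to, was 810 and 795 units in Sham and 867 and 871 in TiO2-H. Of the non-control spots, 56.9% and 56.2% were well above background in Sham and 59.4% and 61.2% in TiO2-H. Both measures were thus higher on both TiO2-H arrays, a difference that cannot be told apart from exposure.

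None of the 14 member probes passed the threshold between the TiO2-H and Sham arrays by limma with adjustment over all 35626 probes tested. The lowest adjusted p among them was 0.355, and 0% of all probes passed in either direction (lowest adjusted p 0.33). At an unadjusted p under 0.05, limma gave 4 member probes, 1 higher and 3 lower in TiO2-H. Of all 35626 probes tested, 9.2% were so higher and 4.44% lower (13.6% together, 4860 probes). Those include probes well above background on only some arrays, unlike the 14 member probes. With 2 arrays against 2, an exact permutation test cannot go below a two-sided p of 0.33. Both TiO2-H arrays lay above both Sham arrays for 2 member probes and below them for 3, and the groups overlapped for the other 9. Among the 29409 probes well above background on all 4 arrays the same orders were found for 28.9% and 25.8%, 54.7% together. Without scaling between the arrays the split of the members was 8 higher and 2 lower, and that of all probes 60.0% and 5.09%, with the median of all probes 0.12 higher in TiO2-H on the log2 scale. No member probe reached a change of 1.5-fold upward or 0.67-fold downward in either labelled sex, where 7.39% (male) and 7.64% (female) of all probes did. The 2 Sham arrays differed from each other by that much at 7.13% of probes.

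**Figure D1:**
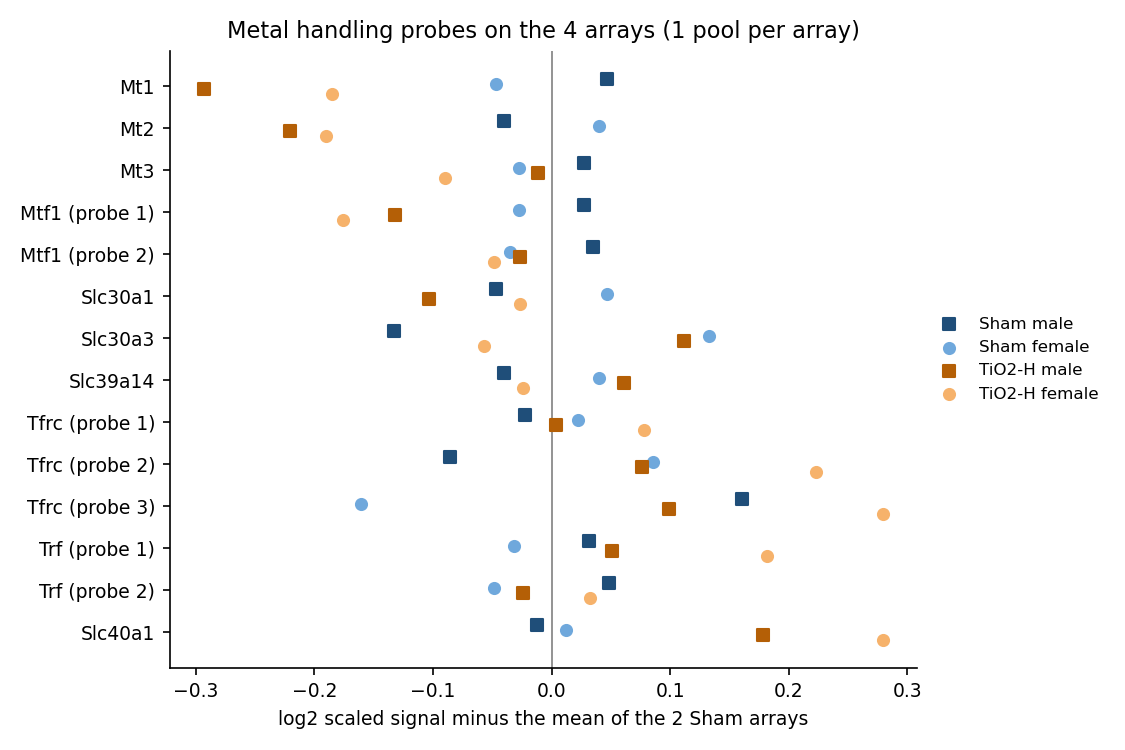
Scaled log2 signal of each member probe on the 4 arrays, minus the mean of the 2 Sham arrays; squares are arrays labelled male, circles arrays labelled female, blue Sham and orange TiO2-H, and probes of a gene are numbered from brightest to dimmest. For Mt1, Mt2 and the brightest probe of Mtf1 both orange points lie left of both blue points, and for Slc40a1 and the brightest probe of Trf both lie right of them.

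The metallothioneins Mt1 and Mt2 were lower on both TiO2-H arrays. Mt1 (probe A_66_P111660) read 46531 and 42818 units in Sham and 39352 and 42586 in TiO2-H. After scaling to the 75th percentile these were 5.84 and 5.75 against 5.50 and 5.61 on the log2 scale. Both TiO2-H values thus lay below both Sham values, also before scaling. The mean difference was −0.24 (SE 0.069, 95% interval −0.46 to −0.021, n = 2 arrays a group), a level of 0.847-fold, with a limma adjusted p of 0.359. In whole tissue, fewer cells of a type and less RNA per cell cannot be told apart.

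Mt2 (probe A_51_P246317), whose protein has the same metal-binding role, read 30467 and 31622 units in Sham and 28773 and 29514 in TiO2-H. The scaled log2 signals were 5.23 and 5.31 against 5.05 and 5.08, again with no overlap of the groups. The difference was −0.21 (SE 0.051, 95% interval −0.37 to −0.044), a level of 0.867-fold, with a limma adjusted p of 0.355. By label the Mt1 difference was −0.34 in males and −0.14 in females, and that of Mt2 was −0.18 and −0.23. With the TiO2-H arrays exchanged, the differences from the Sham male and then the Sham female array were −0.23 and −0.25 for Mt1 and −0.15 and −0.26 for Mt2. When the Sham female array, which held some Y-linked RNA, was left out, Mt1 differed by −0.29 and Mt2 by −0.17. Each of these values was below 0, which follows from the groups not overlapping and is no further evidence.

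A difference as low as that of Mt1 was found at 4.36% of all probes well above background on all arrays, and one as low as that of Mt2 at 5.99%. Both had signals over 10 times the 75th percentile, and probes that bright spread less between the groups (5th to 95th percentile −0.15 to 0.14, against −0.22 to 0.32 over all probes). Of the 3765 probes at 10 times the 75th percentile or more on all 4 arrays, 44.4% had both TiO2-H arrays below both Sham arrays. Their median difference was −0.033, against 0.0056 over all probes. Of these bright probes, 0.398% had a difference as low as that of Mt1 and 1.06% one as low as that of Mt2. The brightness cut was not planned and was made for these 2 genes, so the shares are a description and no test.

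The third metallothionein of the brain, Mt3 (probe A_52_P320971), overlapped between the groups. Its scaled log2 signals were 1.33 and 1.27 in Sham and 1.29 and 1.21 in TiO2-H. The difference was −0.051 (95% interval −0.22 to 0.12), which spans levels from 0.858-fold to 1.09-fold (limma adjusted p = 0.657), and it turned to 0.064 without scaling. Mt1 minus Mt3 on the same array differed by −0.19 on the log2 scale between TiO2-H and Sham, and Mt2 minus Mt3 by −0.15. Scaling by 1 factor per array leaves such values unchanged, while processing that depends on intensity, as in quantile normalization, can change them. Mt1 minus Mt2 differed by −0.034 only, less than the distance between the 2 Sham arrays in that quantity (0.44 and 0.61).

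Metallothionein genes are switched on through short metal response elements, to which the product of Mtf1 binds. Promoter windows of the metallothioneins and of Slc30a1, the other well-known target, are shown with the matches of that motif marked. They are the 250 bases before the RefSeq start on the GRCm38.p6 assembly, 5′ to 3′ on the gene's own strand (the forward strand for all 4): chr8:94178839-94179088 for Mt1, chr8:94172368-94172617 for Mt2, chr8:94152357-94152606 for Mt3 and chr1:191906531-191906780 for Slc30a1. Capitals mark matches of TGCACNC or TGCGCNC on either strand, and matches may overlap.
Mt1: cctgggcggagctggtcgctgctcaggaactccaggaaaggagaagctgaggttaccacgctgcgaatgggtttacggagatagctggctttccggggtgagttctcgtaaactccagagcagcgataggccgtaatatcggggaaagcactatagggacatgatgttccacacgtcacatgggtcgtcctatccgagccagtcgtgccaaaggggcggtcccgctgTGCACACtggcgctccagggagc
Mt2: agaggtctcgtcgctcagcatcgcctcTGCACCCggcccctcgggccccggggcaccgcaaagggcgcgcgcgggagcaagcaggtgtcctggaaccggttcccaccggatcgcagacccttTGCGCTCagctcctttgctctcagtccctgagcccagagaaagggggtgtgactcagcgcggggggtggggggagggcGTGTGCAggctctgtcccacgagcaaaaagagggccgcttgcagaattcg
Mt3: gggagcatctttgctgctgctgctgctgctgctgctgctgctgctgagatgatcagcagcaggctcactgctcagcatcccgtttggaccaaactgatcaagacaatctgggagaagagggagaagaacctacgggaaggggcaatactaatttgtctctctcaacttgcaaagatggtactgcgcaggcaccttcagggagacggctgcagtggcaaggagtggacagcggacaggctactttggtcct
Slc30a1: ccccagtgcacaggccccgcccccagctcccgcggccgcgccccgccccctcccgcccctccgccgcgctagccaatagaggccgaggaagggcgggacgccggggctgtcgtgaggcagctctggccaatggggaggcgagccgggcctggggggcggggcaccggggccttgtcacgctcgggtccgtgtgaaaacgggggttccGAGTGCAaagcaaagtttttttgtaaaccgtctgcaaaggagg

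The window of Mt2 held 3 matches, beginning 223, 128 and 50 bases before the start, that of Mt1 held 1 at 23 bases and that of Slc30a1 held 1 at 43 bases. Tfrc had 2 overlapping matches in one of its windows and none in the other, and Slc30a3 had 1 match in one of its windows and none in the other. None was found in the windows of Mt3 and Mtf1, which says only that these letters are not in them. Bases outside the windows, also those after the RefSeq start, were not searched. The counts therefore do not give how many such elements a gene has. Of the 32851 promoter windows of this length in the RefSeq table, 21.4% held at least 1 match, 5.17% at least 2 and 1.26% at least 3. The table held 7 of the 10 members. A match is a description of the sequence, and the array measured no binding.

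Mtf1 itself was represented by 3 probes that did not give the same picture. The brightest (A_52_P467266) had scaled log2 signals of −0.39 and −0.44 in Sham and −0.54 and −0.59 in TiO2-H, so that both TiO2-H values were below both Sham values. Its difference was −0.15 (SE 0.047, 95% interval −0.30 to −0.0061, limma adjusted p = 0.361). Before scaling this probe read 620 and 586 units in Sham and 595 and 579 in TiO2-H, so that the groups overlapped. The difference shrank to −0.039 without scaling and to −0.044 with another background correction (normexp). The dimmer probe (A_55_P2069277) had scaled log2 signals of −1.62 and −1.69 against −1.68 and −1.70, and its groups overlapped. Its difference was −0.037 (95% interval −0.19 to 0.11, limma adjusted p = 0.706), or 0.077 without scaling. The remaining probe was nowhere well above background.

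The zinc transporters overlapped between the groups. Slc30a1, which exports zinc from the cell, had scaled log2 signals of 0.70 and 0.80 in Sham and 0.65 and 0.72 in TiO2-H. The difference of −0.065 had a 95% interval of −0.26 to 0.13 (limma adjusted p = 0.629). Slc39a14, which imports zinc and can carry iron, had −0.75 and −0.67 against −0.65 and −0.73, a difference of 0.018 with a 95% interval of −0.17 to 0.21 (limma adjusted p = 0.884). It turned to −0.022 without the Sham male array and to −0.024 without the array labelled TiO2-H male, and the difference of Slc30a1 turned to 0.049 without scaling.

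Slc30a3, which loads zinc into the synaptic vesicles of neurons, had a signal not far above background and the widest interval of the transporters. Its signal was 79.5 and 93.8 units in Sham and 101 and 90.0 units in TiO2-H. By label the log2 difference was 0.24 in males and −0.19 in females, with a mean difference of 0.027 and a 95% interval of −0.39 to 0.45 (limma adjusted p = 0.923). The 2 Sham arrays were themselves 0.27 apart. With the TiO2-H arrays exchanged the difference was 0.076 from the Sham male array and −0.021 from the Sham female array. Without the Sham male array the mean difference was −0.11, and without the array labelled TiO2-H male −0.057, so that its sign rests on those arrays. A p that misses the threshold does not show that these transporters were at the same level, and the interval of Slc30a3 spans 0.761-fold to 1.36-fold.

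**Figure D2:**
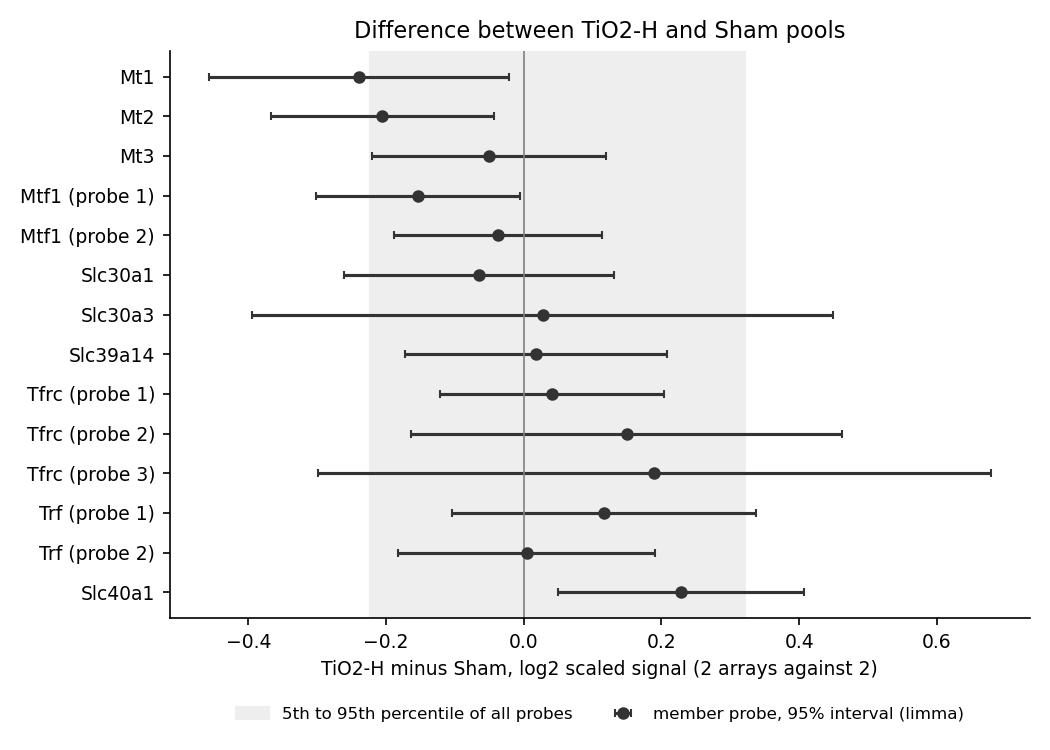
Difference between the TiO2-H and Sham arrays in log2 scaled signal for each member probe well above background (points), with 95% intervals from limma (2 arrays against 2); the gray band holds the 5th to 95th percentile of all 29409 probes well above background on all arrays (−0.22 to 0.32). The intervals of Mt1, Mt2, the brightest Mtf1 probe and Slc40a1 leave out 0, before adjustment for the number of probes tested, and all member differences lie between −0.24 and 0.23.

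Among the iron genes, Slc40a1 was higher on both TiO2-H arrays. Slc40a1 (probe A_51_P389988) encodes ferroportin, the exporter through which cells release iron. It read 581 and 580 units in Sham and 709 and 764 in TiO2-H. The scaled log2 signals were −0.48 and −0.46 against −0.29 and −0.19, with no overlap, and the order was the same before scaling. The difference was 0.23 (SE 0.056, 95% interval 0.050 to 0.41), a level of 1.17-fold, with a limma adjusted p of 0.355. By label it was 0.19 in males and 0.27 in females. With the TiO2-H arrays exchanged the difference was 0.29 from the Sham male array and 0.17 from the Sham female array, and 0.24 without the Sham female array. A difference at least as high was found at 9.83% of the probes well above background on all arrays.

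Slc40a1 lay above its Sham values and Mt1 and Mt2 below theirs. Mt1 minus Slc40a1 within an array, free of any scaling, was 6.21 to 6.32 on the Sham arrays and 5.79 to 5.80 on the TiO2-H arrays, a change of −0.47 on the log2 scale. For Mt2 minus Slc40a1 the change was −0.43. The size of such a number has no meaning between 2 probes, only its change between arrays does. Mt1 and Slc40a1 had the lowest and the highest difference of the member probes (−0.24 and 0.23). The change of −0.47 restates those differences and is no separate result.

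Tfrc, the receptor that takes up transferrin-bound iron, was measured by 3 probes, all with a positive difference and all with overlapping groups. The brightest probe (A_52_P228236) was printed in 10 spots, of which 8 and 10 were kept in Sham and 9 and 10 in TiO2-H after removal of spots marked as outliers. Its scaled log2 signal was 0.54 ± 0.070, 0.58 ± 0.077, 0.57 ± 0.049 and 0.64 ± 0.071 (SD over spots of 1 array, a technical spread). The difference between the groups was 0.041 (95% interval −0.12 to 0.20, limma adjusted p = 0.702). Of the dimmer probes, A_65_P06446 read 518 and 572 units in Sham and 620 and 689 in TiO2-H and differed by 0.15 after scaling (95% interval −0.16 to 0.46, limma adjusted p = 0.534). A_51_P167876 read 60.0 and 47.1 units against 61.6 and 70.0 and differed by 0.19 (95% interval −0.30 to 0.68, limma adjusted p = 0.585). After scaling, on both an array labelled TiO2-H lay below a Sham array.

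**Figure D3:**
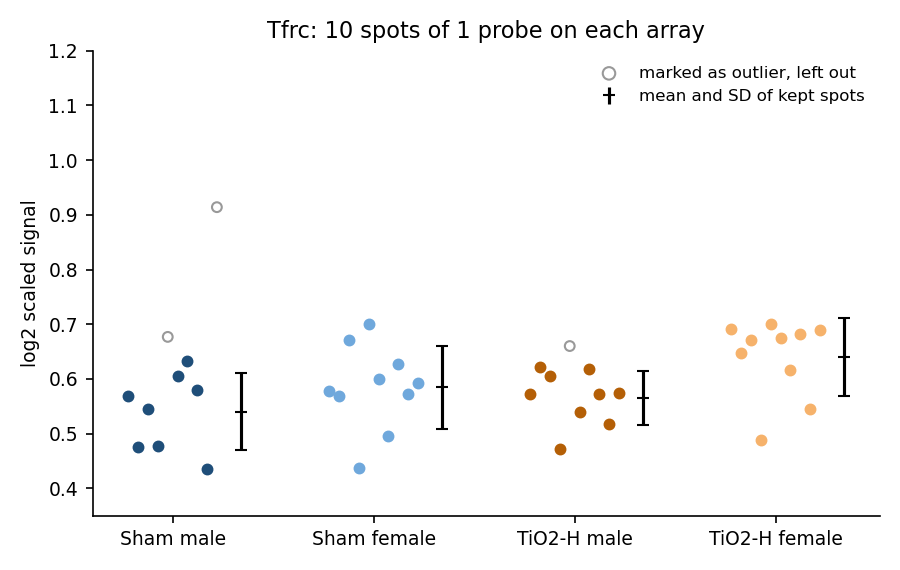
Scaled log2 signal of each of the 10 spots of the brightest Tfrc probe on each array (filled points), with spots marked as outliers and left out (open circles) and the mean and SD of the kept spots (bars). The spot values of the 4 arrays overlap, with means from 0.54 to 0.64.

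Trf encodes transferrin, the carrier of iron in plasma and brain fluid, which oligodendrocytes and the choroid plexus make in brain. Its brighter probe (A_55_P2037584) read 2103 and 1974 units in Sham and 2281 and 2507 in TiO2-H. Scaled to log2 these were 1.38 and 1.31 against 1.39 and 1.53, so that the lower TiO2-H array stood 0.019 above the higher Sham array. The difference was 0.12 (95% interval −0.10 to 0.34, limma adjusted p = 0.507). The other probe (A_55_P2037585) had scaled log2 signals of 0.46 and 0.36 against 0.38 and 0.44, with a difference of 0.0042 (95% interval −0.18 to 0.19, limma adjusted p = 0.974) and overlapping groups. It turned to −0.044 without the Sham female array and to −0.024 without the array labelled TiO2-H female.

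Markers of some brain cell types moved with these genes, and their part in the results was not tested. The counts below are on scaled signal, where 28.9% of all probes were higher and 25.8% lower on both TiO2-H arrays. Beside Slc40a1, all 6 microglial markers were higher on both TiO2-H arrays (3 to 6 of them, and none lower, under the other scalings and the normexp correction), and their summed scaled signal was 37.4 and 39.5 on the Sham arrays and 42.4 and 45.4 on the TiO2-H arrays. P2ry12, a receptor of resting microglia, had the largest of these differences (0.36, limma adjusted p = 0.366). All 5 markers of meninges and fibroblasts were also higher on both TiO2-H arrays (21.8 and 21.5 against 22.9 and 23.5), as were 2 of 6 endothelial markers, among them Flt1, a receptor of vascular growth factor (0.31, limma adjusted p = 0.355), while 1 was lower. Without scaling, where 60.0% of all probes were higher and 5.09% lower, all 5 meningeal and 4 of 6 endothelial markers were higher and none lower. The summed scaled endothelial signal was 25.4 and 24.8 against 25.6 and 25.0.

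Beside Trf, 4 of 8 oligodendrocyte markers were higher on both TiO2-H arrays and none lower, with summed signals of 22.5 and 22.4 against 24.0 and 24.7. Of 7 choroid plexus markers 4 were higher and 1 lower, and their sum was 93.7 and 91.1 against 89.1 and 90.7. Beside Mt1 and Mt2, 3 of 7 astrocyte and radial glia markers were higher and 2 lower, with sums of 125 and 117 against 130 and 132. Beside the iron genes, 2 of the 3 erythroid markers well above background on all arrays were lower and none higher, and the summed erythroid signal was 62.6 and 60.1 against 51.6 and 51.9. The erythroid markers Hba-x and Epb42 were nowhere well above background, and Hbb-bh1 was on 1 array. Without scaling, 6 oligodendrocyte, 6 choroid plexus and 5 astrocyte and radial glia markers were higher and none of these lists had a lower one, while 1 erythroid marker was lower and none higher.

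Beyond the members, 75 genes of metal handling and of the glucocorticoid response were listed, and 65 of them were well above background on all 4 arrays. Both TiO2-H arrays were higher for 11 of these genes and lower for 31, beside 28.9% and 25.8% of all probes, and none passed adjustment by limma (lowest adjusted p 0.355). At an unadjusted p under 0.05 by limma there were 4 higher and 8 lower, beside 9.2% and 4.44% of all 35626 probes tested. Those include probes well above background on only some arrays, unlike the 65 genes. The median difference was −0.059, beside 0.0056 over all probes. Without scaling, when the median of all probes was 0.12, that of the listed genes was 0.055 (31 genes higher and 7 lower, beside 60.0% and 5.09% of all probes). Leaving out the scaling shifts the difference of every probe alike, so the distance between these medians could not change. Counts per list are on scaled signal, to be read against the same 28.9% and 25.8%, and each is followed by the count without scaling.

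In the metallothionein list 3 of 4 genes were lower on both TiO2-H arrays, the third being Mt4, the metallothionein of stratified epithelia, and without scaling the count was the same. Mt4 was dim, with 113 and 152 units in Sham and 93.9 and 109 in TiO2-H, and differed by −0.49 (limma adjusted p = 0.417). Of 9 exporters of the Slc30 family above background, 2 were higher and 2 lower, or 4 and 0 without scaling. The largest differences were those of Slc30a7, which moves zinc into the Golgi (0.18, groups overlapping, while its 2 dimmer probes were at −0.15 and −0.22), and Slc30a9 (−0.14). Of 13 importers of the Slc39 family above background, 2 were higher and 6 lower, or 7 and 0 without scaling. Slc39a10 read 767 and 794 units against 993 and 982 and differed by 0.23 (limma adjusted p = 0.355), and Slc39a4, the importer of dietary zinc, differed by −0.15 (limma adjusted p = 0.398). Slc39a5 was well above background only on the array labelled TiO2-H female. It read 6.88 and 10.3 units in Sham and 23.9 and 32.2 in TiO2-H (limma adjusted p = 0.355), so that no fold is given.

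In the list of iron uptake, storage and export, 6 of 19 genes were higher on both TiO2-H arrays and 5 lower, the members included, or 13 and 1 without scaling. Apart from Slc40a1, the largest differences were those of Slc25a37, the importer of iron into mitochondria (0.22, limma adjusted p = 0.355, with a dimmer probe well above background in TiO2-H only), and Slc11a2, which carries iron out of endosomes. Slc11a2 differed by −0.23 on its brighter probe and by 0.32 on its dimmer one (limma adjusted p = 0.355 for each), so that its probes went opposite ways. The subunits of ferritin, the store of cellular iron, overlapped between the groups, with differences of −0.013 for Fth1 and 0.010 for Ftl1.

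Of 6 genes of iron sensing and the hepcidin axis above background, Mtf1 among them, 1 was higher and 4 lower, or 2 and 2 without scaling. Aco1, which as iron regulatory protein binds the mRNAs of ferritin and of the transferrin receptor, read 399 and 430 units in Sham and 555 and 569 in TiO2-H. Its difference was 0.33 (limma adjusted p = 0.355), and the groups did not overlap. Bmp6, a growth factor through which the liver senses iron stores, read 536 and 533 against 464 and 471 units and differed by −0.31 (limma adjusted p = 0.355). Hjv, its co-receptor, was well above background on the Sham arrays only, at 71.0 and 224 units, and was at least 5.21-fold lower in TiO2-H (limma adjusted p = 0.355). This bound rests on the Sham female array: from the Sham male array alone it was 2.91-fold. The hepcidin genes Hamp and Hamp2 were nowhere well above background.

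Heme genes were lower on both TiO2-H arrays in 6 of 8 cases and higher in none, but without scaling 3 were higher and none lower. The largest differences were those of the erythroid enzyme Alas2 (−0.17, limma adjusted p = 0.478) and the heme transporter Slc48a1 (−0.16, limma adjusted p = 0.361). Hpx, the heme carrier hemopexin, was well above background only on the array labelled TiO2-H female, and read 7.75 and 7.02 units in Sham and 15.5 and 40.5 in TiO2-H, so that no fold is given. Of 8 copper genes, 1 was higher and 3 lower (3 and 1 without scaling), with the largest differences in the copper transporter Slc31a2 (−0.17, limma adjusted p = 0.359) and in Sco1, whose groups overlapped (−0.12). Of the 8 glucocorticoid-responsive genes, listed because glucocorticoids also induce Mt1 and Mt2, 5 were lower and 1 higher, or 2 and 3 without scaling. The clock gene Per1 differed by −0.25 (limma adjusted p = 0.402) and Tsc22d3, a standard readout of the glucocorticoid receptor, by −0.17 (limma adjusted p = 0.355). The part of this list in the levels of Mt1 and Mt2 was not tested.

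**Figure D4:**
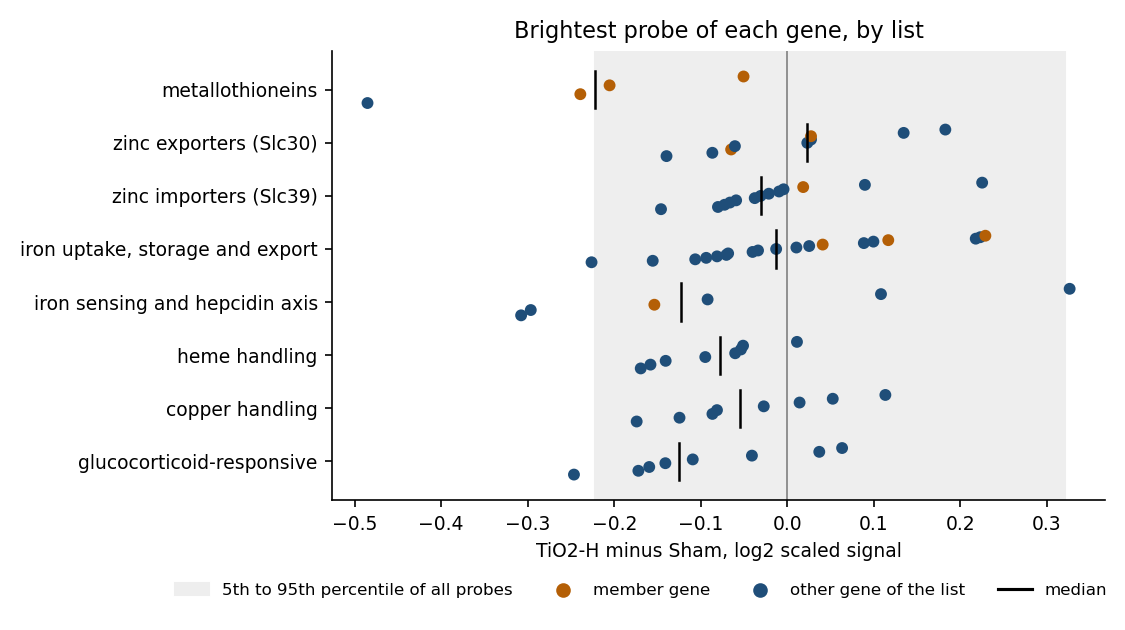
Difference between the TiO2-H and Sham arrays in log2 scaled signal for the brightest probe of each listed gene well above background on all arrays, by list; orange points are member genes, blue points the other genes, black bars the list medians and the gray band the 5th to 95th percentile of all probes. The medians of the lists lie between −0.22 (metallothioneins) and 0.023 (zinc exporters), and 1 gene, Mt4, lies well left of the others.

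**Figure D5:**
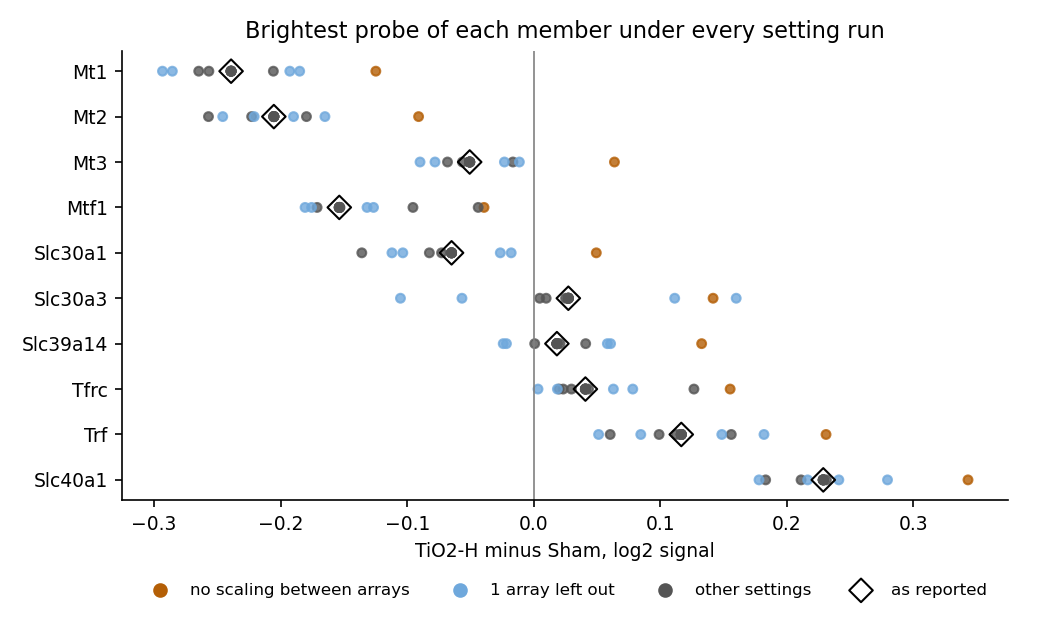
Difference between the TiO2-H and Sham arrays in log2 signal for the brightest probe of each member (diamonds) and under every other setting run (points): no scaling between arrays in orange, 1 array left out in light blue and all others in gray. Mt1 and Mt2 stay below 0 (−0.29 to −0.12 and −0.26 to −0.091) and Slc40a1 above it (0.18 to 0.34), while Mt3, Slc30a1, Slc30a3 and Slc39a14 have settings on both sides.

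The plot of settings shows how far the member differences moved with the processing. The differences of Mt1, Mt2, Slc40a1, the brightest probe of Mtf1 and the brighter probe of Trf kept their sign in every setting run. Those of all 3 Tfrc probes did so too. None of them passed the adjusted threshold in any setting that kept all arrays. Filters on dim probes, sex as a block, an intensity trend and the choice of the brightest probe leave these differences unchanged by construction. Keeping outlier spots changed only the brightest Tfrc probe. Outside Tfrc, leaving out an array could not turn a sign either, since the groups do not overlap. For those probes this leaves the other scalings, the normexp correction and, for Mtf1 and Trf, averaging over probes.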

How the data were processed

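One-color arrays measured mRNA in 4 pools of newborn brain, 1 array per pool, for male and female offspring of Sham and TiO2-H dams. The deposited scanner files hold intensity, which the authors made with Feature Extraction 10.10.1.1. This software subtracts background and removes spatial trends within an array but does not scale between arrays. A deposited table of processed intensity holds the same values and was not used further. Probes were named through their accession in a RefSeq gene table (assembly GRCm38.p6), which held 98.0% of the NM and NR accessions. The annotation of the array rests on another build, so the only positions given are those of the promoter windows, from RefSeq.

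Processed signals were divided by the 75th percentile of all non-control spots on that array and taken to log2. Outlier spots were dropped before averaging the spots of a probe. Exposure was tested with limma 3.58.1 (R 4.3.3), 2 TiO2-H against 2 Sham arrays and no term for sex, on 35626 probes well above background on at least 1 array, with Benjamini-Hochberg adjustment and a threshold of 0.05. The methods of the study name no test for arrays and use 1.5-fold and 0.67-fold, which were applied by labelled sex with no test. The brightest probe stood for a gene in lists. Named beyond the members are listed genes with a difference of at least 0.3 and no overlap of the groups, or past 1.5-fold alike in both labelled sexes, and the 2 largest differences per list. Fth1, Ftl1, Hamp and Hamp2 were named after their values were seen. For Hjv, whose TiO2-H signal was not well above background, the fold is a bound: a dim array counted with its own signal or, if higher, with the lowest signal rated well above background on it (23.3 to 31.0 units over the 4 arrays). The members and lists were chosen with earlier results of these data known. Alternatives (those for the lists chosen after seeing the data) were quantile normalization, no scaling, the percentile over spots well above background on all arrays, normexp with an offset of 50 on median signals, outlier spots kept, other filters on dim probes, a 2-fold threshold, sex as a block, an intensity trend, other probe choices, exchanged TiO2-H arrays and each array left out in turn. The limma step was tested on simulated data with the same noise at every probe, which checks the code and not its power here. Figures and counts used Python 3.11.15. The number of arrays limits the precision.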

Additional observations from a re-analysis of the deposited data

How the results depend on the processing

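No probe on the array passed an adjusted p of 0.05 by limma under any of the alternatives, with the lowest adjusted p at 0.070, under an intensity trend, and the lowest of a member, Mt2, at 0.117. No member probe passed 1.5-fold in either labelled sex under any alternative run, the exchange of the TiO2-H arrays and a 2-fold threshold included. Without scaling, Mt3 differed by 0.064, the dimmer probe of Mtf1 by 0.077 and Slc30a1 by 0.049, each with the opposite sign, and 8 member probes instead of 2 had both TiO2-H arrays above both Sham arrays, beside 60.0% of all probes. The dimmer probe of Trf, at 0.0042, turned to −0.00055 under quantile normalization and to −0.013 with the percentile taken over spots well above background on all arrays. Under that percentile 5 member probes instead of 3 lay below both Sham arrays, beside 30.6% of all probes. Of the listed genes that are no members, 31 instead of 11 were higher and 7 instead of 31 lower without scaling, and their other counts stayed within 1.5 times.

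With 1 array left out, Slc30a3 ranged from −0.11 to 0.16 (−0.11 without the Sham male array, −0.057 without the array labelled TiO2-H male) and Slc39a14 from −0.024 to 0.061 (−0.022 and −0.024 without the same arrays). The dimmer probe of Trf ranged from −0.044 to 0.053 (−0.044 without the Sham female array, −0.024 without the array labelled TiO2-H female). The members with no overlap then numbered 3 to 6 higher and 4 to 6 lower, beside 39.3% to 41.4% and 35.2% to 38.8% of all probes, since fewer arrays have to fall in order. The cause of the other reversals was not tested. With an array left out, the lone array of its group is assumed to vary like the other group. No paired analysis was possible because the labels give no replicate numbers, and the sex labels, the one link between a Sham and a TiO2-H array, went against the sex-linked RNAs. With labelled sex as a block all the same, limma gave 3085 probes at an unadjusted p under 0.05, and 2810 with the TiO2-H labels exchanged, against 4860 without a block. A choice of members by a gene name column was not used here, and the normexp correction was made on median signals because no mean signal was used. The 95% intervals of the member probes reached 0.15 to 0.49 to either side on the log2 scale.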
